A study of Mus musculus with 4 samples.

Results

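Chromosome 11 held 7320 of the 59563 DHX9 peaks called in mouse embryonic stem (ES) cells, 12.3% of the list. The members described here are all peaks whose chromosome field in the deposited list is chromosome 11. The chromosome was singled out because it is known from these data to hold many peaks, so counts, densities, widths, strands and runs of its peaks are given as a description and without a test. They are set beside the 17 other autosomes, with chromosome 8 left out, which together held 45668 peaks.

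The study used FLASH, a form of CLIP-seq in which RNA is crosslinked to protein with ultraviolet light and the fragments that come down with the protein are sequenced. There were 4 samples from the feeder-independent male ES cell line WT26 (strain C57BL/6x129sV), grown on gelatin with serum and leukemia inhibitory factor: 2 pulled down with a rabbit antibody to DHX9 and 2 with rabbit IgG. Both antibodies have a replicate A and a replicate B, all from the same cell line. The authors' single peak list gives positions and strands alone, with no height, p-value or read count, so sequencing depth, expression and the spread between replicates are unknown, and the cells could not be checked against the levels of marker genes. Intervals below cover counting error alone, and since neighbouring peaks are not independent they are too narrow.

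DHX9 is a DExH-box helicase that unwinds paired RNA and RNA-DNA hybrids in the nucleus. In mammals it is known to bind hairpins formed where inverted copies of repeat elements lie near each other in introns, and to act with transcription and splicing factors. Peaks of such a protein can be seen only in RNA that is made in the cells, so their number in a gene follows both expression and binding, which the list does not separate. Mouse chromosome 11 is rich in genes and carries the Hoxb cluster, clusters of keratin, chemokine and skeletal muscle myosin genes, and many housekeeping genes.

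Few windows around annotated starts on chromosome 11 overlapped a peak, and several of those that did belonged to the genes with the most peaks. Promoter windows, 250 bases before to 50 bases after an annotated start (RefSeq, GRCm38.p6, the assembly of mm10), were available for 1865 genes of chromosome 11. Of their 2289 windows, 58 (2.53%) overlapped a peak on the strand of the gene, against 1.21% on the 17 other autosomes. The 58 windows belonged to 50 genes, since a gene can have several starts and a peak can be counted at each. A peak on the opposite strand was met in 18 windows (0.786%, against 0.412%). In 35 of the 58 windows the first such peak began before the annotated start, and in 14 it began within 20 bases of it on either side. Some of these starts, as at Kansl1 and Taok1, lie inside the annotated gene. A peak that began before such a start can still lie within the gene. A peak that began 50 bases or more past the start could not be met, so the counts before and after the start cannot be compared. The following sequences run from 100 bases before to 30 bases after the start, 5′ to 3′ on the strand of the gene, with the bases under a peak in capitals. They were chosen from the genes with the most peaks to show where the first peak lay. In all 5 genes printed, the first peak began before the start shown. The same was so for Rtn4 and Kansl1, which are not printed. In Cobl and Nufip2, also not printed, it began 24 and 33 bases after an annotated start.
Spred2: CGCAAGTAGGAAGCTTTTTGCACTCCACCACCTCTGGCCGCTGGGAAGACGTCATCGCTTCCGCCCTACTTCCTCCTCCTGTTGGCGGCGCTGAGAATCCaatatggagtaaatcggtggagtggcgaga
Suz12: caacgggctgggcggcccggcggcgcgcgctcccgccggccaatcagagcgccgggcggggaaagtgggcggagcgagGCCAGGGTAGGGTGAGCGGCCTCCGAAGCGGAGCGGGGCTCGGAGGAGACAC
Xpo1: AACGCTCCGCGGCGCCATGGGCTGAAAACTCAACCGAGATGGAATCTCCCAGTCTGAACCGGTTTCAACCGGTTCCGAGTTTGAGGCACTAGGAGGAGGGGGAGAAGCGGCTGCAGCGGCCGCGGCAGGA
Hspa4: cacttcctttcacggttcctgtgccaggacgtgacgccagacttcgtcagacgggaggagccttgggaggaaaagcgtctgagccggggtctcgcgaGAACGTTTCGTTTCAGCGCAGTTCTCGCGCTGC
Tex14: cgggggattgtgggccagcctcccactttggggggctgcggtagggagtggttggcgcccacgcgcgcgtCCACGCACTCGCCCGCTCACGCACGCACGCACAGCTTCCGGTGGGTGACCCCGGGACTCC
In Spred2 (chr11:19924342-19924471, plus strand) a peak of 112 bases ended on the base before the start. In Suz12 (chr11:79993006-79993135, plus) a peak of 316 bases began 22 bases before it. In Xpo1 (chr11:23255941-23256070, plus) the whole printed stretch was covered by a peak of 598 bases. In Hspa4 (chr11:53300450-53300579, minus) the peak began 3 bases before the start and was 516 bases wide. In Tex14 (chr11:87404965-87405094, plus) it began 30 bases before and was 397 bases wide. Of these 5 genes, Spred2 was the one whose printed peak lay wholly before the start. In Xpo1 and Tex14 the start shown lies inside the annotated gene, which opens farther upstream.

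Hairpins of 4 microRNAs overlapped a peak of their own strand. MicroRNA genes were no more often overlapped on chromosome 11 than elsewhere: 5 of 88 (5.68%, exact 95% interval 1.87 to 12.8%) against 7.76% on the other autosomes. The fifth was Mir467f, with all 120 bases under a peak of 389 bases in Fxr2. Its strand was not compared with that of the peak, and it is not among the sequences below. The 8 mature sequences of the 4 hairpins are given 5′ to 3′ from RefSeq with the seed, bases 2 to 8, in capitals.
mmu-miR-3064-5p: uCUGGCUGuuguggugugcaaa
mmu-miR-3064-3p: uGCCACACugcaacaccuuaca
mmu-miR-3063-5p: uGGAGAUCagguuugcacacu
mmu-miR-3063-3p: uGAGGAAUccugaucucucgcc
mmu-miR-6516-5p: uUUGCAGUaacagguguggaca
mmu-miR-6516-3p: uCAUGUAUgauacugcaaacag
mmu-miR-22-5p: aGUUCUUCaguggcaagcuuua
mmu-miR-22-3p: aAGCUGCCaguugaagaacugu
The 8 seeds differed from one another. Mir3064 lies in Ddx5, itself an RNA helicase gene, and all 67 bases of its hairpin (chr11:106782693-106782759, minus strand) were under a peak of 330 bases. Mir3063, in the mRNA-binding protein gene Igf2bp1, had all 92 bases under a peak of 312 bases (hairpin at chr11:95963292-95963383, minus). In Mir6516, in the noncoding gene Snhg20, 89 of 110 bases were covered (chr11:117077348-117077457, plus). In Mir22 a peak of 73 bases reached 19 of the 95 bases of the hairpin and 1 base of miR-22-5p (chr11:75463716-75463810, plus).

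Peaks were denser on chromosome 11 than on any of the 17 other autosomes. There were 60.0 per Mb over 122 Mb, against 12.4 (chromosome 3) to 30.3 (chromosome 5) and 20.7 over the 17 together, a ratio of 2.90. Chromosome 8, which is in none of these ranges, had 40.0 per Mb, a peak in 32.1% of its protein-coding genes and a mean of 14.7 peaks in those, so that its share of genes with a peak was above that of chromosome 11. Gene number, the share of genes with a peak and peaks per gene were all higher than over the 17 others, and their ratios do not multiply exactly to 2.90, since some peaks lie outside protein-coding genes or in several. Chromosome 11 had 13.1 protein-coding genes per Mb, 1.62 times the 8.11 of the others. Of its 1602 protein-coding genes 471 held at least 1 peak (29.4%, exact 95% interval 27.2 to 31.7%), 1.30 times the 22.6% of the others, and a gene with a peak held a mean of 14.9 peaks, 1.39 times their 10.7. In each of these another chromosome came close or higher: chromosome 7 had more genes per Mb (13.9), chromosome 5 nearly the same share of genes with a peak (29.2%), and chromosome 1 nearly the same mean (14.4). The median per gene with a peak differed less than the mean. It was 6, against 5 over the 17 others together and 3 to 7 on each, and so lay within their range. Counting only genes with at least 3 peaks, the share was 19.4% on chromosome 11 and 10.8 to 21.0% on the others, and counting only peaks no narrower than the list's median (196 bases) it was 22.3% against 12.8 to 23.0%, so that it no longer lay above their range.

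**Figure D1:**
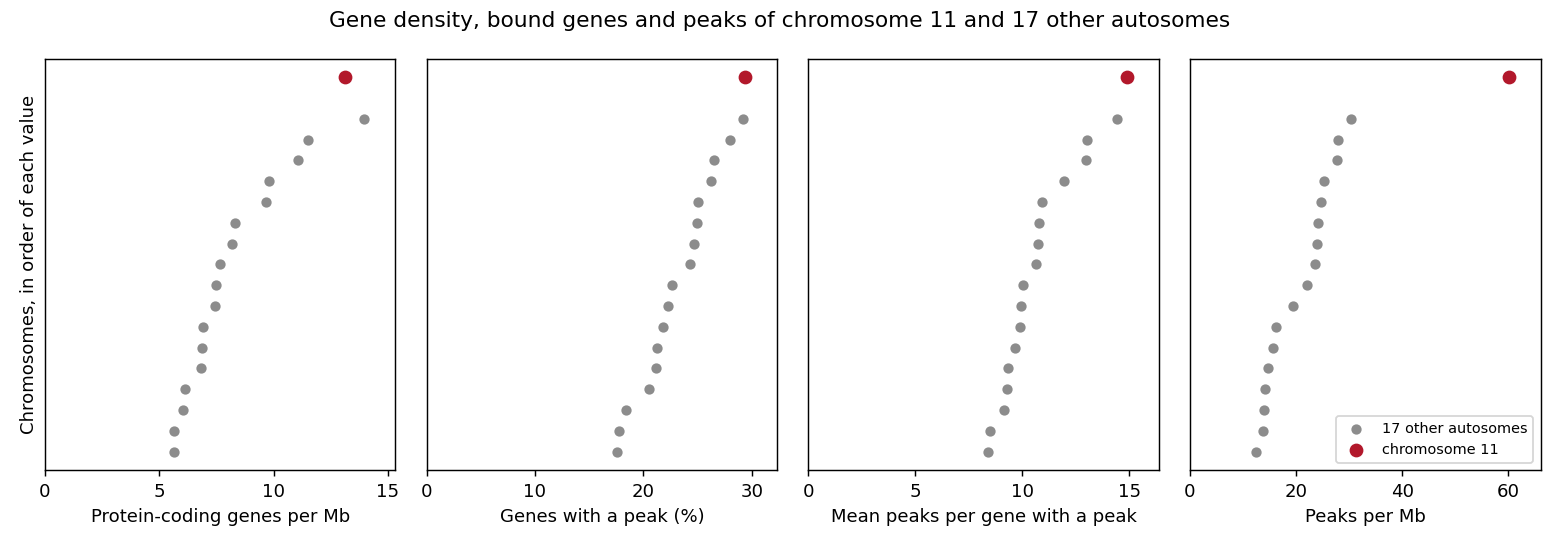
Each dot is a chromosome (red, chromosome 11; grey, 17 other autosomes in order of the value on each axis), for protein-coding genes per Mb, the share of these genes with a peak, mean peaks per gene with a peak, and peaks per Mb. Chromosome 11 is near the top of the first 3 panels and stands apart at 60.0 peaks per Mb in the last, where the next chromosome has 30.3.

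The higher number of peaks per gene lay in the longer genes. Among genes under 10 kb, those with a peak held a mean of 4.05 peaks on chromosome 11 and 4.12 on the others, and among genes of 10 to 30 kb 8.73 and 8.44. Genes of 30 to 100 kb held 21.3 against 13.4, and genes of 100 kb and over 34.2 against 14.6. The share of genes with a peak was higher in each length class: 12.5% against 8.12%, 36.4% against 26.3%, 45.9% against 35.8% and 46.6% against 29.9%, in order of length. The median over genes with a peak told the same for 30 to 100 kb (11 against 6) and 100 kb and over (8 against 5), and was lower on chromosome 11 for the shorter classes (2 against 3 and 4 against 5). Genes were not matched on expression, which the list does not give.

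**Figure D2:**
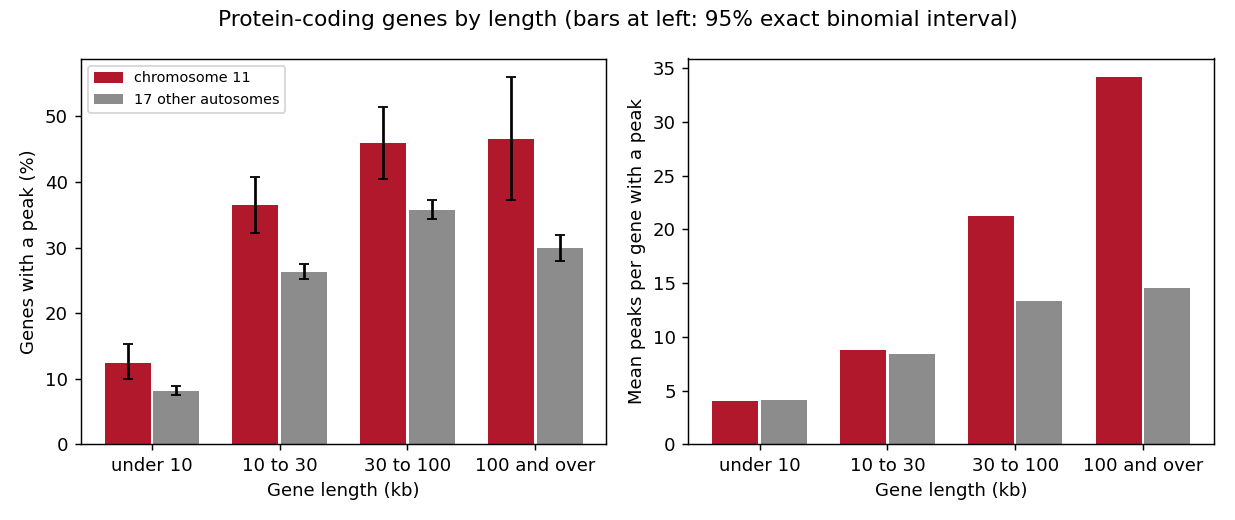
Bars give the share of protein-coding genes with a peak (left, with exact 95% binomial intervals) and mean peaks per gene with a peak (right) by gene length, for chromosome 11 (red) and 17 other autosomes pooled (grey). The mean is about the same below 30 kb and rises to 34.2 against 14.6 peaks in genes of 100 kb and over.

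Along the chromosome, peaks were spread over many regions. Of 61 windows of 2 Mb, 32 (52.5%) held at least 100 peaks, against 6.25 to 25.0% of windows on the other autosomes, and 13 held at least 200. The median window held 109 peaks, against 2 to 27. The fullest window held 358, fewer than the fullest on 4 of the 17 others, where the highest was 518, and than the fullest on chromosome 8 (687). The 10 fullest windows held 40.7% of the chromosome's peaks, against 44.6 to 79.4%, and without them chromosome 11 still had 42.6 peaks per Mb, against 4.21 to 15.9 on the others without theirs. Both measures also depend on the number of windows, which was 31 to 98 on the others. Windows with more genes tended to hold more peaks (Pearson r = 0.53 and Spearman rho = 0.65 over the 61 windows, which are neighbours on 1 chromosome).

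**Figure D3:**
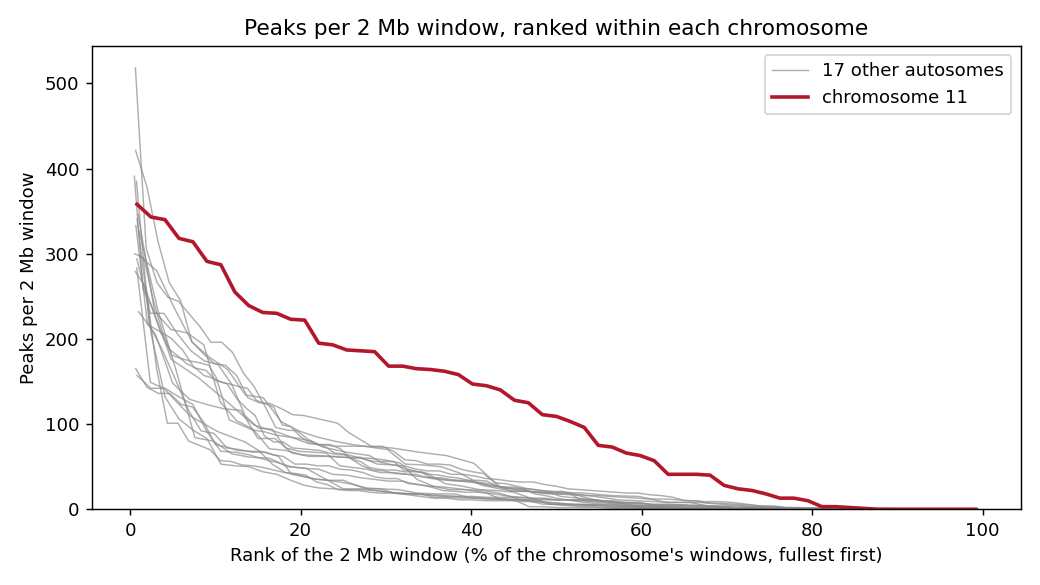
Lines give peaks per 2 Mb window with the windows of each chromosome ranked from the fullest, as a percentage of its windows (red, chromosome 11; grey, 17 other autosomes). The red line starts at 358, below the highest grey start of 518, and runs above the grey lines through the middle of the ranking, with a median window of 109 peaks against 2 to 27.

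The fullest window, chr11:96000001-98000000, held 358 peaks, and 22 of its 54 protein-coding genes had a peak. It was led by the aminopeptidase gene Npepps (81 peaks), the heterochromatin protein gene Cbx1 (43) and Mllt6 (36). The same window holds the Hoxb cluster, whose 10 listed genes had none. The second, chr11:68000001-70000000, held 343, of which 111 were in Ntn1, which encodes the guidance cue netrin-1, and 40 in Polr2a, which encodes the catalytic subunit of RNA polymerase II. The third, chr11:4000001-6000000, held 340, led by Znrf3 (120), a ubiquitin ligase gene that lowers Wnt receptors, the tumour suppressor gene Nf2 (76) and the RNA-binding protein gene Ewsr1 (39). The fourth, chr11:74000001-76000000, with 318 peaks, was shared by the 14-3-3 gene Ywhae (72), the dynein regulator gene Pafah1b1 (57), the RNA methyltransferase gene Mettl16 (50) and the adaptor gene Crk (44). The fifth, chr11:52000001-54000000, with 314, held Aff4 (91), Hspa4 (83) and the phosphatase gene Ppp2ca (44). In the windows ranked 6 and 8 a single gene held most peaks, Msi2 with 180 of 291 and Ranbp17 with 168 of 255.

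Peaks were absent from 8 windows (13.1%, against 9.68 to 33.3% on the 17 other autosomes), which together overlapped 40 protein-coding genes. The first of them lies in the gap with which the assembled chromosome opens. The window chr11:66000001-68000000 overlapped 20 protein-coding genes, among them the skeletal muscle myosin genes Myh1, Myh2, Myh3, Myh4, Myh8 and Myh13, and held no peak. Another 4 windows held 1 to 3 peaks.

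The 471 protein-coding genes with a peak held a median of 6 (quartiles 2 and 16). Of these, 107 had 1 peak, 174 had at least 10, 35 at least 50 and 10 at least 100. On the 17 other autosomes together 146 genes had at least 50, with 4 to 22 on each. The 21 genes at the top of the ranking, which runs to a tie at 75 peaks, held 2248 peaks, 30.7% of those on the chromosome, and in each of the 21 every peak was on 1 strand. Because these were the genes with the most peaks, their counts describe the ranking and support nothing further.

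Among the genes with the most peaks were regulators of RNA. The translational regulator gene Msi2 (chr11:88339382-88718306, 379 kb) held 180 peaks, with 100 in its first 20% and 5 in its last 40%. Its first peak began 6605 bases into the gene. Tnrc6c, which encodes a partner of Argonaute in microRNA silencing (chr11:117653703-117763439), held 94, with 43 in the first 20% and none in the last. Igf2bp1, which encodes an mRNA-binding protein of early development (chr11:95957163-96005944), held 86 over 48.8 kb, with 18, 21, 18, 9 and 20 in successive 20% parts. Peaks thus lay in the front of Msi2 and Tnrc6c and along the whole of Igf2bp1.

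Chromatin and transcription genes made up a second group. Kansl1, a scaffold of the NSL histone acetyltransferase complex (chr11:104333501-104469508), held 118 peaks, of which 47 were in the middle 20% and 12 in the first. The corepressor gene Ncor1 (chr11:62315663-62457414) held 101, of which 95 lay in no other protein-coding gene. Aff4, a scaffold of the super elongation complex (chr11:53350640-53421830), held 91. Suz12, a core subunit of Polycomb repressive complex 2 (chr11:79993106-80034123), held 84 over 41.0 kb, which covered 49.6% of the gene's length.

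Genes of signalling and the cell surface were also in this set. Spred2, an inhibitor of Ras-MAP kinase signalling (chr11:19924442-20024026), held 142 peaks over 99.6 kb, 48, 42, 29, 15 and 8 in successive 20% parts. Pitpnc1, which encodes a phosphatidylinositol transfer protein (chr11:107207892-107470720), held 131, of which 104 (79.4%) lay in its first 20%. Znrf3 (chr11:5276329-5444847) held 120, with 55 in the second 20%. Ntn1 (chr11:68209364-68386826) held 111, with 109 in the first 40%. Nf2 (chr11:4757639-4849544) held 76.

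Genes of transport, protein handling and the cytoskeleton completed the set. Ranbp17, an importin family gene (chr11:33211794-33513784), and Cobl, an actin nucleator gene (chr11:12236676-12465022), held 168 each. In Cobl the peaks lay at both ends, with 69 in the first 20%, 49 in the last and 5 in the middle, and in Ranbp17 55 lay in the first 20%, 59 in the middle and 1 in the fourth part. The deubiquitinase gene Usp34 (chr11:23303185-23490560) held 100, the chaperone gene Hspa4 (chr11:53259814-53300479) 83 and Npepps (chr11:97205842-97280660) 81. Rtn4, which encodes an endoplasmic reticulum shaping protein (chr11:29692898-29744414), held 78. Nufip2, an RNA-binding protein gene (chr11:77685764-77717966), and Xpo1, the main nuclear export receptor gene (chr11:23255909-23297597), held 75 each. Tex14, a gene known for its role in germ cell bridges (chr11:87405013-87555823), held 86, of which 52 lay in its second 20%.

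**Figure D4:**
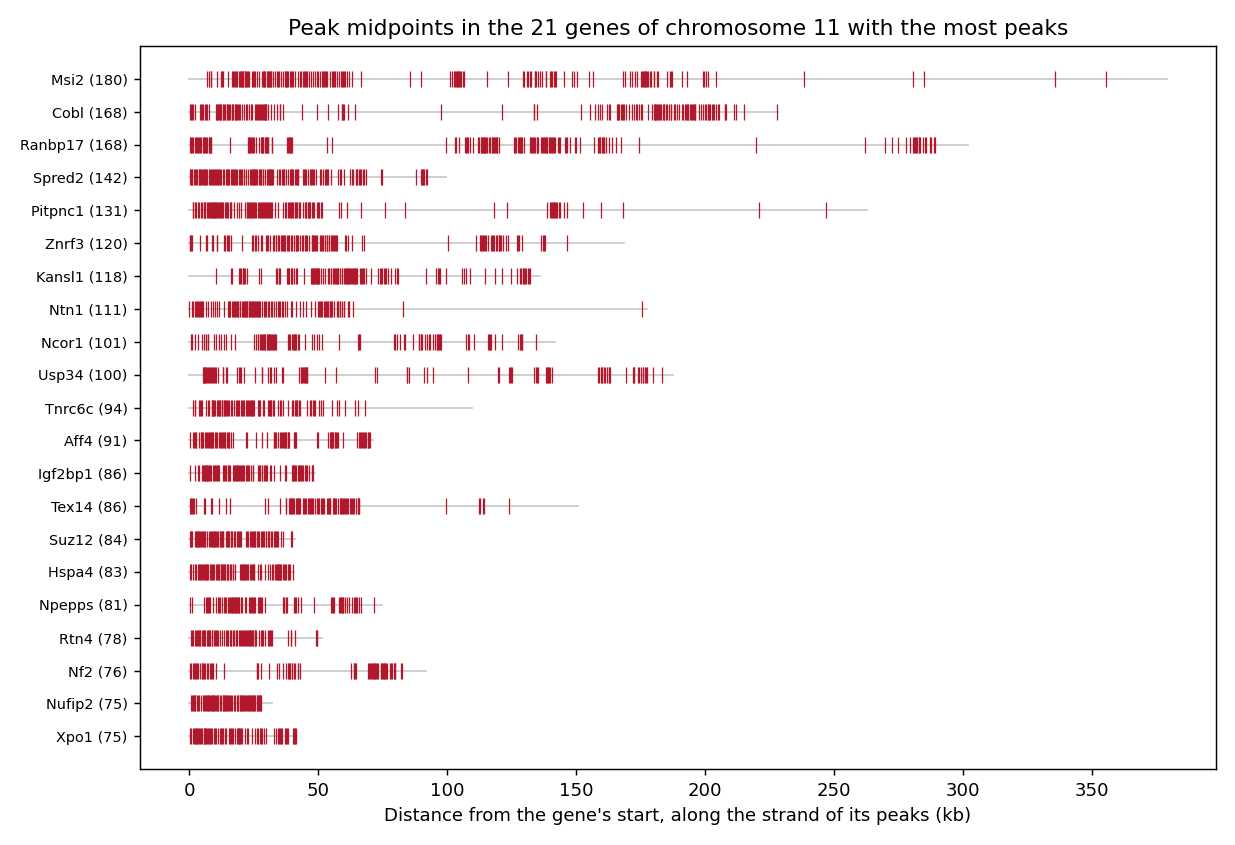
Each row is 1 of the 21 genes with the most peaks on chromosome 11, drawn to scale in kb from its start along the strand of its peaks, with a red tick at each peak's midpoint and the peak count in brackets. Peaks fill shorter genes such as Nufip2 and Suz12, crowd the front of Pitpnc1 and Ntn1, and lie at both ends of Cobl.

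Per length, shorter genes led. Over 226 protein-coding genes that were 10 kb or longer and held 5 peaks or more, Nufip2 came first with 2.33 peaks per kb, and its 75 peaks formed a single run. Bases under these peaks made up 60.3% of the gene. Ywhae followed with 2.18 per kb, Sumo2, which encodes a ubiquitin-like modifier, with 2.13 (28 peaks in 13.1 kb, chr11:115523109-115536230), Cbx1 with 2.12 and the endoplasmic reticulum chaperone gene Canx with 2.11. The stress granule protein gene G3bp1 had 2.05, Suz12 2.05, Hspa4 2.04, the GTPase gene Drg1 1.99 and the mitochondrial membrane protein gene Tmem11 1.92. When peaks within 50 bases were merged, Cbx1 came first with 1.67 per kb and Suz12 second with 1.58, and 7 of these 10 genes stayed among the 10 densest.

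Listed genes of RNA, chromatin and housekeeping pathways on chromosome 11 mostly held peaks, against the 29.4% of all its protein-coding genes, whose median count was 0. The lists were chosen with earlier results of these data known, were not matched on length or expression, and were not tested. Their names are broad. Some members, such as Tlk2 among signalling genes and Ywhae among transport and chaperone genes, fit them loosely. Splicing and mRNA processing factors had peaks in 21 of 24 cases (median 8.5): Taf15, an RNA-binding protein gene, held 64, Ewsr1 39, Luc7l3, a U1-associated factor gene, 32, Smg6, a nonsense-mediated decay endonuclease gene, 25, and Gemin5 24. Alyref, Gemin4 and Smg8 held none. The helicase list had peaks in 8 of 10 genes (median 3.5). Helz, with 39 of the list's 67 peaks, belongs to another helicase superfamily than the DExD/H-box proteins. Among the DExD/H-box genes Ddx5 and Eif4a1 held 7 each and Dhx40 5, while Ddx52 and the antiviral sensor gene Dhx58 held none. RNA-binding regulators of mRNA fate had peaks in 11 of 15 (median 30). After Msi2, Tnrc6c and Igf2bp1 came Nufip2 with 75 and Larp1, which binds terminal oligopyrimidine mRNAs, with 71, and Alkbh5, Rbfox3, Tob1 and Ybx2 held none.

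Chromatin and transcription regulators had peaks in 21 of 32 cases (median 8.5). After Kansl1, Ncor1, Aff4 and Suz12 came Cbx1 with 43. Among those without a peak were the chromatin remodelling genes Chd3 and Smarce1. In replication, repair and mitosis 16 of 20 held peaks (median 5.5), led by the DNA topoisomerase gene Top2a with 49, Rpa1, a subunit of the single-strand binding protein, and Trim37 with 21 each, Hmmr with 20 and Cdc27 with 17, while Brip1, Lig3, Ppm1d and Tubg1 held none. Nuclear transport and chaperone genes held peaks in 12 of 12 cases (median 28.5), led by Ranbp17 with 168, Hspa4 with 83, Xpo1 with 75, Ywhae with 72 and Canx with 67.

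Short ribosomal protein genes, listed with Rack1 and Npm1, had peaks in 7 of 8 (median 4): Rack1, a ribosome scaffold gene, held 13, Npm1 11, Rpl23 9 and Rpl23a 5, and Rpl26 none. Proteasome genes had peaks in 5 of 8, with Psmd11 at 35 and Psme4 at 28, and none in Psmb6, Psmc5 and Psmd3. Cytoskeleton and membrane traffic genes had peaks in 10 of 16 (median 2): after Cobl and Rtn4 came Actr2, a subunit of the Arp2/3 complex, with 61, while Actg1, Baiap2, Exoc7, Myh10 and Myo1d held none. The list named for LIF, growth factor and self-renewal signalling had peaks in 9 of 20 genes (median 0). After Nf2 with 76 came Crk with 44, Tlk2 with 28, Stat3, the transcription factor downstream of LIF, with 22 and Grb2 with 15. Axin2, Lif, Socs3, Wnt3 and Stat5a held none.

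Listed gene families of differentiated tissues held no peaks. This was so for the 6 skeletal muscle myosins, the 15 keratins, the 10 Hoxb genes, the 18 chemokine and cytokine genes, and also for the 83 olfactory receptor genes of the chromosome, which were counted after the other lists. Keratin, Hoxb and cytokine genes are short, with medians of 5.55, 3.97 and 3.41 kb, whereas the myosins have a median of 25.5 kb. Over all protein-coding genes of chromosome 11, 12.5% of those under 10 kb and 36.4% of those of 10 to 30 kb held a peak. Lengths of the olfactory receptor genes were not compared. Of 4 markers of fibroblasts Sparc held 9 peaks and Col1a1, Igfbp4 and Timp2 none.

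**Figure D5:**
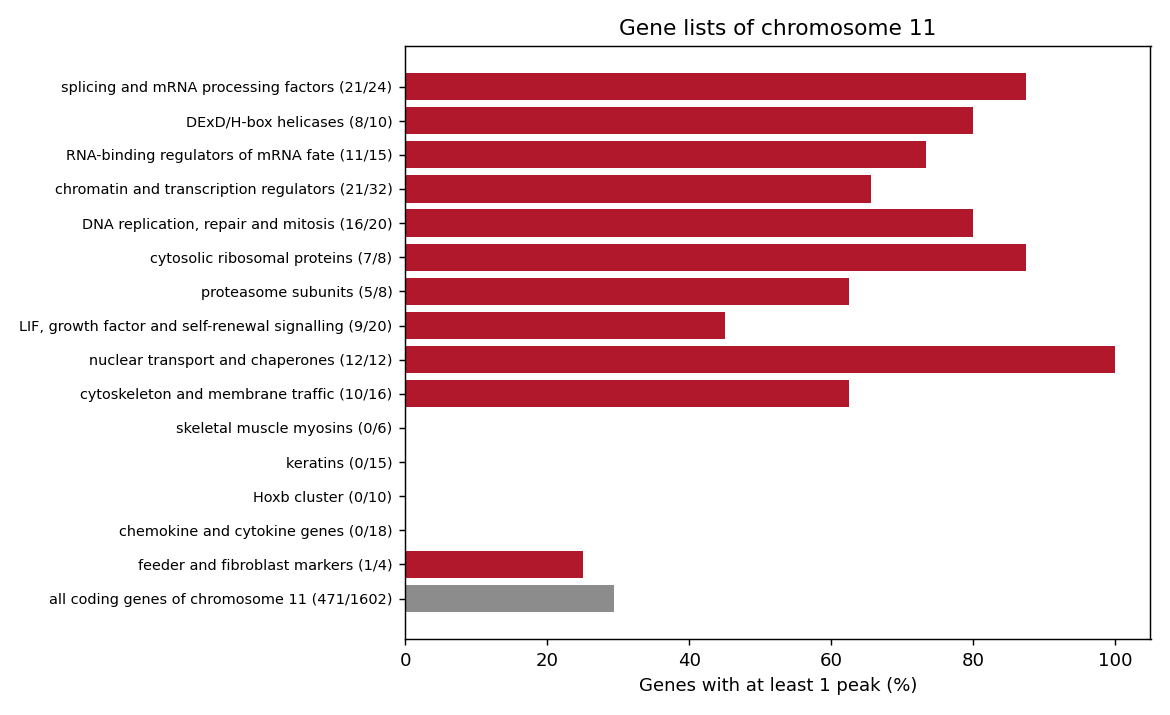
Bars give the share of each gene list of chromosome 11 with at least 1 peak, with the counts in brackets, and the grey bar the share of all 1602 protein-coding genes (29.4%). The first 10 lists lie between 45.0 and 100%, the fibroblast markers at 25.0%, and myosins, keratins, Hoxb genes and cytokines at 0.

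Most peaks lay in runs, defined as at least 3 peaks on 1 strand with gaps of at most 1000 bases. Chromosome 11 had 614 runs with 5865 peaks, 80.1% of its peaks (exact 95% interval 79.2 to 81.0%), against 66.6 to 76.8% on the 17 other autosomes. The median gap between neighbours on a strand was 260 bases, against 292.5 to 413. Chromosome 8 had 80.4% of its peaks in runs and a median gap of 252 bases, so that neither measure sets chromosome 11 apart from it. A run had a median of 6 peaks over 2610 bases, and its peaks covered a median of 51.1% of it. There were 70 runs of at least 20 peaks, with 31.6% of the peaks of the chromosome. The 17 other autosomes had 8 to 31 such runs each, among fewer peaks (1473 to 4728). Chromosome 8 had 42 among 5170 peaks. Peaks with no neighbour within 1000 bases numbered 953 (13.0%).

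The longest run held 79 peaks over 32630 bases from the start of Spred2 (chr11:19924330-19956959, plus strand), 72.0% of it under peaks. It was followed by 71 peaks over 32064 bases in Rtn4, 64 over 28882 bases in Tex14, 75 over 27591 bases in Nufip2 and 53 over 27413 bases in Larp1. The Tex14 run (chr11:87442303-87471184) began in the second 20% of the gene. The Spred2 run began 112 bases before the annotated gene, and those of Rtn4 and Nufip2 began 282 and 408 bases into it.

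Widths were close to those elsewhere. The median was 201 bases (quartiles 148.75 and 274.25), against medians of 188 to 201 on the other autosomes, with 201 on chromosome 10 and 202 on chromosome 8. The narrowest peak had 18 bases and the widest 827, in Larp1 (chr11:58025501-58026327). The plus strand held 3390 peaks and the minus strand 3930, a plus share of 46.3%, inside the range of 41.5 to 73.2% on the other autosomes.

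Peaks followed the strand of the genes. In the 403 protein-coding genes with a peak and a strand in the promoter table, 6109 of 6195 peaks (98.6%, exact 95% interval 98.3 to 98.9%) were on the sense strand, against 97.7% (97.6 to 97.9%) on the other autosomes. The 86 antisense peaks lay in 34 genes, 18 of which had no sense peak. Phykpl had 16 of its 24 on the antisense strand, 6 of them inside Hnrnpab, which lies on that strand. The 9 antisense peaks of Cnp lay in Dnajc7 and the 6 of Ttc19 in Ncor1. Maml1 had 9 antisense peaks and no overlapping gene of that strand in the table.

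Peaks were denser towards gene starts. Over 157 protein-coding genes that were 20 kb or longer and held 5 sense peaks or more, the first 20% of the gene held a mean of 27.8% of them and the last 20% held 12.8%. On the other autosomes the same shares were 28.4% and 13.0% over 1177 genes. The first part held more peaks in 100 of the 157 genes and the last in 35. In 11 of the 21 genes with the most peaks, the first 20% held the most.

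Promoters of genes with a peak were richer in GC than those of genes without. Taking the start farthest upstream of each gene, the median GC content was 61.7% over 403 genes with a peak and 55.7% over 868 without, and the median number of CG dinucleotides was 24 and 10. The GC box GGGCGG, on either strand, was in 69.2% and 42.2% of these windows. On the other autosomes the shares were 68.0% and 40.5%, and over all windows of the table, other starts and noncoding genes included, 36.0%. The TATA box TATAAA, on either strand, was in 6.45% of windows of genes with a peak and 16.8% of the rest (13.6% of all windows). On the other autosomes these shares were 6.11% and 15.8%. The third motif counted, the CCAAT box, differed little, with 37.0% and 40.6% on chromosome 11 and 39.4% and 38.9% on the other autosomes. A match is not a bound site.

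Some noncoding genes with peaks shared them with protein-coding genes. Of 739 long noncoding RNA genes 59 held a peak (3.94% of such genes on the other autosomes did). Of 19 noncoding genes or pseudogenes with at least 5 peaks, 9 had every peak inside a protein-coding gene, such as Gm11714 with 14 in Pitpnc1, all on the strand opposite to its own. The most peaks in no other gene were in 2410003L11Rik, with 31 over 24.4 kb (chr11:97598511-97622893, all on the plus strand). Gm11613 held 11. D930048N14Rik held 14 over 6.73 kb, 3 of them in no other gene. Platr20, named as a pluripotency associated transcript, held 8, all sense and in no other gene.

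Small nucleolar RNA genes, which guide the modification of ribosomal and spliceosomal RNAs, overlapped a peak in 20 of 66 cases (30.3%, exact 95% interval 19.6 to 42.9%), against 12.8% on the other autosomes. In 18 of the 20 the whole gene was under 1 peak. Some shared a host transcript: Snord95, Snord96a and 1 unnamed snoRNA in Rack1, Snord4a, Snord42a and Snord42b in Rpl23a, and Snord49a, Snord49b and Snord65 in the noncoding gene 2410006H16Rik. Eif4a1 held another 2. Snord118, the U8 RNA needed for ribosomal RNA processing, lay whole under a peak of 210 bases (chr11:69073426-69073562). Members of 1 host share its expression and are not independent.

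Transfer RNA genes overlapped a peak in 19 of 47 cases (40.4%, exact 95% interval 26.4 to 55.7%), against 28.3%. The peaks over them were narrow, with a median of 76 bases and a range of 25 to 214, and 17 of the 19 genes lay in no protein-coding gene. For 8 of the 19, the whole gene was under 1 peak. Small nuclear RNA genes overlapped a peak in 1 of 61 cases, against 3.28%.

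Few peaks lay outside genes: 212, or 2.90% (exact 95% interval 2.52 to 3.31%), against 3.07 to 7.24% on the other autosomes. With any overlap with a gene counted the share was 2.80% against 2.57 to 7.11%, with closely spaced peaks merged 3.15% against 3.06 to 7.44%, and with the wider peaks 2.18% against 2.11 to 8.06%, so that in these settings it lay within their range. Of the 212, 64 were within 10 kb beyond the end of a protein-coding gene with peaks on the same strand, 44 within 10 kb before the start of one, and 104 near neither. The largest groups beyond a gene's end followed Cbx1 (11 peaks, chr11:96809028-96813286), Ppp2ca (7) and Drg1 and Xpo1 (6 each). The largest before a start were at Ntn1 (17, chr11:68388533-68396756) and Pecam1 (11).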

How the data were processed

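FLASH libraries were made from 4 samples of 1 ES cell line, 2 DHX9 and 2 IgG pulldowns. The authors deposited 1 list of peak positions, called with PEAKachu per the file's source column, with settings and use of the IgG control not stated. Per the labels' protocols, random tags served to merge PCR duplicates, and IgG and DHX9 material was mixed before RNA isolation. The submitters' processing notes name Bowtie2 2.2.6 and the builds hg19 and mm10, and the mouse build mm10 was taken for this list. No value per replicate could be used, so no test between samples was run.

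Genes came from a RefSeq table of GRCm38.p6 (49648 placed genes). Another 328 entries with positions inside the first 3 Mb of an autosome, where mm10 has a gap, carry scaffold positions and were left out, 43 of them on chromosome 11. Peaks were assigned to genes by midpoint on either strand, and to small RNA genes and promoter windows by overlap. Gene strand was taken from the RefSeq promoter table, which gave it for 1271 protein-coding genes of chromosome 11, and otherwise from the peaks. The named genes were the 20 with the most peaks (with ties), the 10 densest, those holding at least 10% of the 5 fullest windows, those of the 5 longest runs, up to 5 with and 5 without peaks per list, noncoding genes with at least 5 peaks, and small RNA genes under peaks. Genes named for antisense peaks or peaks outside genes, and other entries outside this rule, were chosen with their values in view. The members and lists were chosen with earlier results of these data known. Intervals are exact 95% binomial intervals. Counting functions were tested on simulated peaks. Analyses used Python 3.11.15, pandas 2.3.3 and scipy 1.17.1.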

Additional observations from a re-analysis of the deposited data

How the results depend on the processing

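No paired analysis was possible because the deposited list holds no value per replicate, and for the same reason no replicate was left out. No score was given, so peaks no narrower than the median stood in for a stricter threshold. Alternatives for the gene lists were chosen after seeing the data. Of 29 recomputed values 16 stayed within the interval of the reported value, or within 1.5 times the reported count. With these peaks, chromosome 11 held 12.7% of all peaks, 22.3% of its genes had a peak, 48.4% of peaks were on the plus strand, 71.3% were in runs and 2.18% lay outside genes. With peaks within 50 bases merged, 75.8% were in runs and the median width was 210 bases. The share in runs was 55.5% with gaps of at most 300 bases, 88.9% with gaps of at most 3000 bases and 68.8% with at least 5 peaks a run, and in all 5 of these run settings it lay above the 17 other autosomes, though only just at 3000 bases (88.9% against up to 88.8%). The share of genes with a peak was 19.4% with at least 3 peaks and 41.0% among genes of at least 10 kb. The median number of peaks per gene with a peak was 4 or 5 under its alternatives. In each it lay within the range of the 17 other autosomes. The 20 fullest windows of 1 Mb held 50.1% of peaks, below the 54.9 to 91.4% of the other autosomes, which differ in their number of windows. Of the 217 listed genes 120 had a peak, and 103 to 120 under the alternatives. The depth behind each peak is unknown.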
